A study of Mus musculus with 2 samples.

Results

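The BCL2 family decides whether a cell commits to death through its mitochondria. The 10 family genes described here were chosen by symbol: the survival genes Bcl2, Bcl2l1 and Mcl1, the effector genes Bax and Bak1, and the BH3-only genes Bad, Bid, Bcl2l11, Bbc3 and Pmaip1. A probe carrying the symbol was found for 9 of the 10, with 1 probe each, among 10208 genes named on the array. No probe is named Bax in the annotation used here, so no intensity of Bax is given.

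Survival proteins of the family hold the effectors BAX and BAK1 in check at the mitochondrial outer membrane. BH3-only proteins are the sensors of damage, growth factor loss and death receptor signals: some occupy the groove of the survival proteins, and some also activate the effectors directly. Once active, the effectors make the membrane permeable, cytochrome c leaves the mitochondria and caspases are switched on. In the thymus, BCL2, BCL-XL (the long product of Bcl2l1) and MCL1 keep thymocytes alive at different stages, and BIM (the product of Bcl2l11) is needed for the death of self-reactive thymocytes. E47 is one of the E proteins made from the E2A gene; restoring E2A proteins in E2A-deficient lymphoma lines is known to promote their death.

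The 2 cultures compared were both of the mouse line 1F9, a thymoma line without E2A, so the controls lack E2A proteins as well. One culture received a retrovirus for a hybrid of E47 and the oestrogen receptor (E47-ER, ER47TX in the sample titles), and the other a retrovirus for the bHLH region alone in the same kind of fusion (bHLH-ER, bHLHERTX), which lacks the N-terminal transactivation domain. In both, 4-hydroxytamoxifen was given for 6 hours starting 1 day after infection, cells carrying the human CD25 marker of the viruses were taken with magnetic beads, and polyA RNA was hybridised to 1 Cy3 oligonucleotide array. With 1 array per construct there is no replicate, no p-value or standard error can be given, and construct, culture and array cannot be told apart; the sampled cells are those of a single line, 6 hours after activation, and were sorted for the viral marker.

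Intensities are given in the units of the deposited table, which appear to be scaled, in the order bHLH-ER array and E47-ER array. Differences are E47-ER minus bHLH-ER, on the log2 scale after each array was centred on its median. A gene was called measured when its mean log2 level reached the median of all probes, an intensity of 1.03, and was called higher or lower at 2-fold. Of 5563 measured genes, 75 were called higher (1.35%) and 15 lower (0.27%), and their median difference was 0.11. The nearest thing to a repeat was the spread among different probes of one gene, with a pooled SD of 0.20 over 55 measured genes, which leaves out the spread between cultures. T lineage markers were above the level limit on both arrays: 8 of 11 had a named probe, all 8 were measured, and their summed intensity was 287 and 429. Of the 8, 7 were brighter with E47-ER, against 66.7% of all measured genes. Rag1 (52.1 and 104) and Ptcra (7.32 and 30.8) were the 2 past 2-fold. Cd3e was dimmer with E47-ER (23.1 and 16.4), and Cd4 lay nearest the limit (1.86 and 2.81). Levels of different probes cannot be compared, so the sums of other marker lists are given for each list's own 2 arrays. The B lineage list summed to 16.3 and 14.1, with 2 of 5 measured and Cd79a holding most of it. The myeloid list summed to 1.19 and 1.82, with 1 of 5 measured. That gene, Itgam, held most of the sum at 0.866 and 1.44, a difference of 0.75. Its control value lay under the level limit, so it counted as measured through its E47-ER value. Under the limit, Mpo read 0.0552 and 0.106, Cd14 0.222 and 0.214, and Lyz2 0.0456 and 0.0562. Of the erythroid (3), fibroblast (4) and NK (4) markers with a named probe none was measured, and their sums were at most 2.34. The part of these markers in the values below was not tested. In bulk RNA, fewer cells that express a gene and less of its RNA per cell cannot be told apart. Tcf3, the gene that encodes E47, has no named probe. Esr1, the oestrogen receptor alpha gene, read 7.87 and 17.3, and it is unknown here whether its probe sees the viral hybrids.

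The largest differences in the family were those of Bcl2l1, Bid and Bcl2l11, each brighter on the E47-ER array. Their upstream sequences are shown because E47 binds E-boxes, short DNA elements with the letters CANNTG. Mcl1, which hardly differed, is shown beside them. Each is the 250 bases before a start site in RefSeq's GRCm38.p6 annotation, 5′ to 3′ on the gene's strand, with E-boxes in capitals. Where a gene had several start sites the outermost was taken. The choice of genes was made after their values were seen.
Bid, chr6:120916825-120917074, minus strand: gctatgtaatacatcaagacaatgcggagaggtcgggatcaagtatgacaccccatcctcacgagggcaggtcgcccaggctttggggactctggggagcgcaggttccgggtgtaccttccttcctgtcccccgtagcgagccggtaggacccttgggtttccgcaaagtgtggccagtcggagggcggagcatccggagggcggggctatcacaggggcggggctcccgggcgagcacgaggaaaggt
Bcl2l11, chr2:128125788-128126037, plus strand: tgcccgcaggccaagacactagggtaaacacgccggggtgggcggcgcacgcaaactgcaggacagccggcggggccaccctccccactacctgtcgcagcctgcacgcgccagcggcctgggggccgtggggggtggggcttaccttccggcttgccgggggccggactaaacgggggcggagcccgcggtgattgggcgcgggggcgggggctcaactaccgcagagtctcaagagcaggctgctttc
Bcl2l1, chr2:152831729-152831978, minus strand: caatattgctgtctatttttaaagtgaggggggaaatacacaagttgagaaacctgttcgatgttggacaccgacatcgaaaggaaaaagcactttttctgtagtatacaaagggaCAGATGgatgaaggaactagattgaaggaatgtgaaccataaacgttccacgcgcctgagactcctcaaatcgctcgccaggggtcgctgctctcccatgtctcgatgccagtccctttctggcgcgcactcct
Mcl1, chr3:95658471-95658720, plus strand: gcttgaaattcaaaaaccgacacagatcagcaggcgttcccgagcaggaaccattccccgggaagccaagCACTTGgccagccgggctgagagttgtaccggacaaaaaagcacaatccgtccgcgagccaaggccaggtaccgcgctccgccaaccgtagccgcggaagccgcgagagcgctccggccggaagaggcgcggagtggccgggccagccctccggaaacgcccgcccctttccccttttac

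The Bid window and both Bcl2l11 windows held no E-box. Each of the 3 Bcl2l1 windows held 1 E-box, at 108, 127 and 134 bases before its start site, counted to the first base of the element; the last of these is the one printed. The Mcl1 window held 1 at 180 bases. RefSeq's table gave 15 windows for the members, Bax included and Pmaip1 not matched. Of these windows 9 held at least 1 E-box, against 66.2% of all 32851 windows. The form CAGCTG, which reads the same on both strands, was found in none of the 15 and in 13.0% of all windows. The element CACCTG, on either strand, was found in 2 of the 15, 1 of Bad and 1 of Bbc3, and in 17.2% of all windows; both forms are also counted as CANNTG. Bad and Bbc3 had differences of 0.28 and -0.09. A match is a description of letters in this window, and E47 binding was not measured here.

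**Figure D1:**
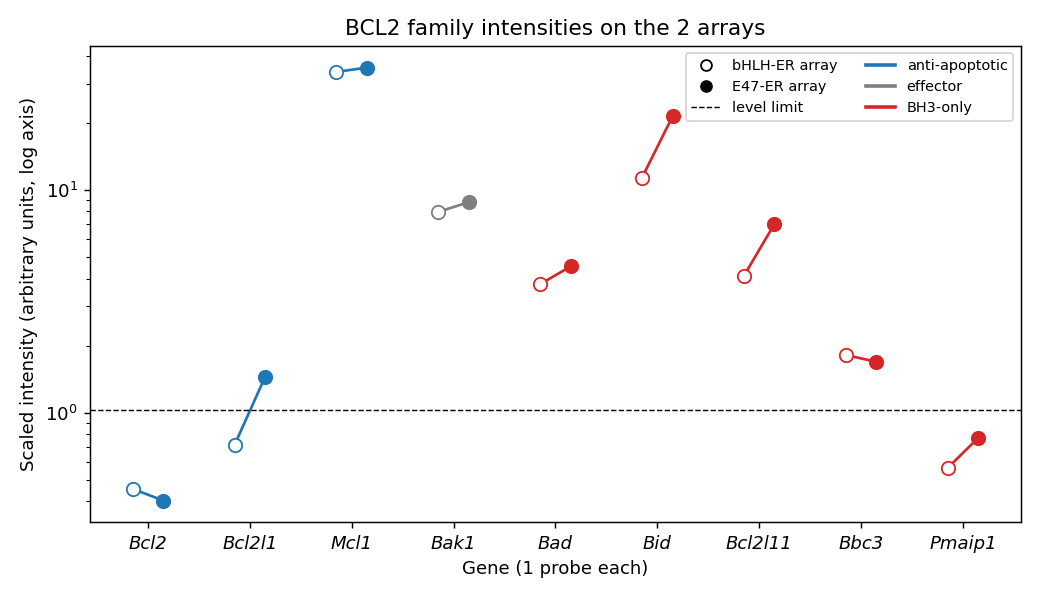
Scaled intensity (log axis) of the 9 BCL2 family genes with a named probe, open circles for the bHLH-ER array and filled circles for the E47-ER array, 1 array each. The dashed line is the level limit of 1.03; Bcl2l1 crosses it, and Bcl2 and Pmaip1 lie below it on both arrays.

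Among the survival genes, Bcl2l1 was brighter with E47-ER, whereas Mcl1 and Bcl2 differed little. Mcl1, whose protein is short-lived and holds BAK1 and BIM, was bright at 33.8 and 35.4, a difference of 0.08 and the smallest of the 9 in size. Bcl2l1, by contrast, read 0.718 and 1.45, a 2.04-fold difference (1.03 on the log2 scale). It was the only member past 2-fold, but its mean level of 1.02 fell just under the limit of 1.03, so it was not counted as measured. Its control value was dim, brighter than 46.1% of all probes, and only the E47-ER value lay above the limit. Without a level limit 4.99% of 9942 genes were at least 2-fold higher. Bcl2, the founding survival gene, was dim on both arrays, at 0.456 and 0.404, and its difference of -0.16 was the lowest of the 9. Low signal does not show that Bcl2 is silent, since the table carries no detection calls and the probe's own sensitivity is unknown.

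The values of dim probes scatter more, so each member was set beside the 500 named genes nearest to it in mean level. Around Bcl2l1 the middle 90% of these genes spanned -0.41 to 0.58, and 5 of the 500 had a higher difference than Bcl2l1. Around Bcl2 the same span was -0.56 to 0.62, which holds its difference. Around Mcl1 it was -0.25 to 0.49, which holds the difference of Mcl1. These spans describe how far genes of like level differ on these 2 arrays and contain real differences as well as error.

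The effector gene Bak1 was nearly level at 7.96 and 8.81. Its difference of 0.16 was close to the median of 0.15 for genes of its level and ranked 2279th from the top when placed among the 5563 measured genes. BAK1 sits in the mitochondrial membrane and forms the pores together with or in place of BAX.

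The BH3-only genes held the highest measured differences of the family and also 1 negative value. Bid, whose protein is cut by caspase 8 and carries death receptor signals to the mitochondria, read 11.4 and 21.4. That is a 1.90-fold difference (0.93), below the 2-fold rule, and it ranked 92nd among measured genes. Of the 500 genes nearest in level, 10 had a higher difference and the middle 90% spanned -0.27 to 0.57. Bcl2l11, which encodes BIM, a sensor of lost survival signals, read 4.12 and 7.03. Its 1.72-fold difference (0.79) ranked 133rd, and again 10 of the 500 nearest genes were higher, with a span of -0.35 to 0.56. Both genes were well above the level limit on both arrays.

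The remaining BH3-only genes differed less. Bad, whose protein is held inactive by survival kinases that phosphorylate it, read 3.78 and 4.54, a difference of 0.28. Bbc3, which encodes PUMA and is a target of p53, read 1.82 and 1.69, a difference of -0.09. Pmaip1, which encodes NOXA, a selective binder of MCL1 and another p53 target, read 0.565 and 0.771. Its difference of 0.46 belongs to a probe under the level limit on both arrays, and the span of the genes nearest in level was -0.54 to 0.55. All 3 of these differences lay inside the span of genes of like level, whereas those of Bid, Bcl2l11 and Bcl2l1 lay above theirs.

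**Figure D2:**
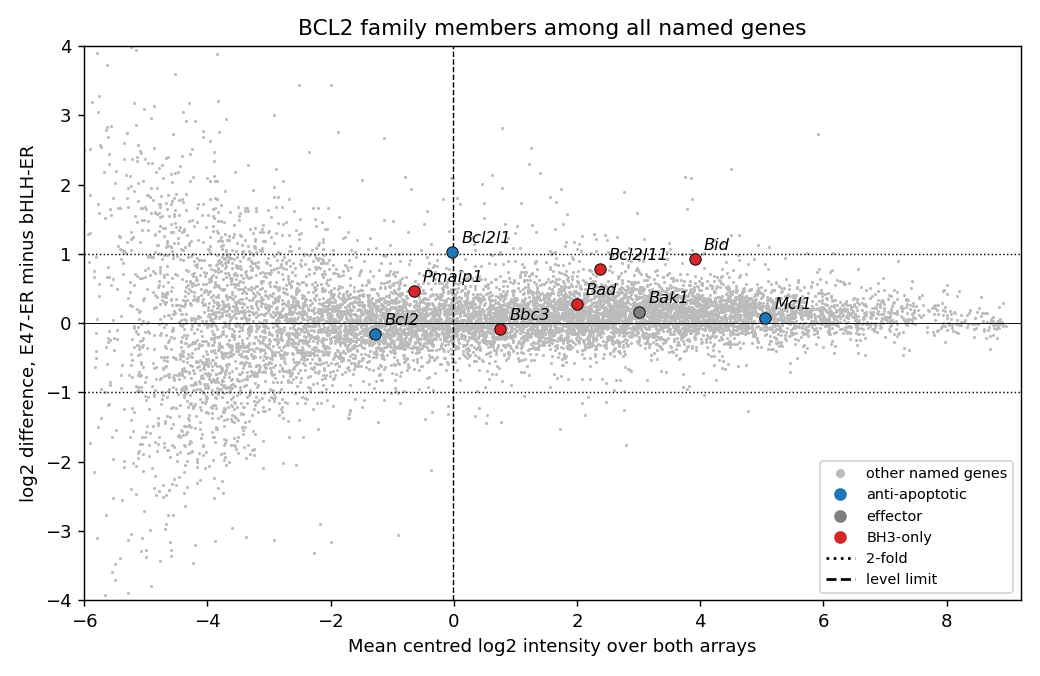
Difference between the arrays (E47-ER minus bHLH-ER, log2) against mean centred log2 intensity for each named gene, with the 9 members coloured by role. Dotted lines mark 2-fold and the dashed line the level limit; 96 genes fall outside the axes. Bid, Bcl2l11 and Bcl2l1 lie at the upper edge of the cloud, the other 6 members within it.

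Of the 9 members, 6 were measured, and all 6 were above the limit on both arrays, so none entered through its brighter array alone. None of the 6 was called at 2-fold, where 1.62% of all measured genes were called in either direction. At 1.5-fold, Bid and Bcl2l11 were higher, 2 of 6, where 5.41% of measured genes were higher. No measured member was 1.5-fold lower, where 1.24% of measured genes were, and 6.65% passed 1.5-fold in either direction. Positive differences were found in 5 of the 6, against 66.7% of all measured genes, and the median was 0.22 against 0.11. With so few members these counts are given as a description. By role, the measured BH3-only genes had a median of 0.53 over 4 genes, while Mcl1 and Bak1 stood alone for theirs. Taken gene by gene, the difference of Bid exceeded that of Mcl1 by 0.85 and that of Bak1 by 0.77, and the difference of Bcl2l11 exceeded that of Mcl1 by 0.71. The difference of Bcl2l1 exceeded that of Bid by 0.10. The probe SD of 0.20 comes from measured genes alone and Bcl2l1 was not among them, so it is no yardstick for that gap. Whether these gaps exceed the spread between cultures was not tested.

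The choice of scaling shifted all members. With equal 75th percentiles in place of equal medians all differences fell by 0.11, which left Bid at 0.82, Bcl2l11 at 0.68 and Bcl2l1 at 0.92, under 2-fold. Mcl1 then stood at -0.03. Adding 1 to each intensity before the logarithm, which damps dim probes, reduced Bcl2l1 to 0.52 and Bid only to 0.87. Over 5 alternatives Bid ranged from 0.81 to 0.93 and Bcl2l11 from 0.66 to 0.79.

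**Figure D3:**
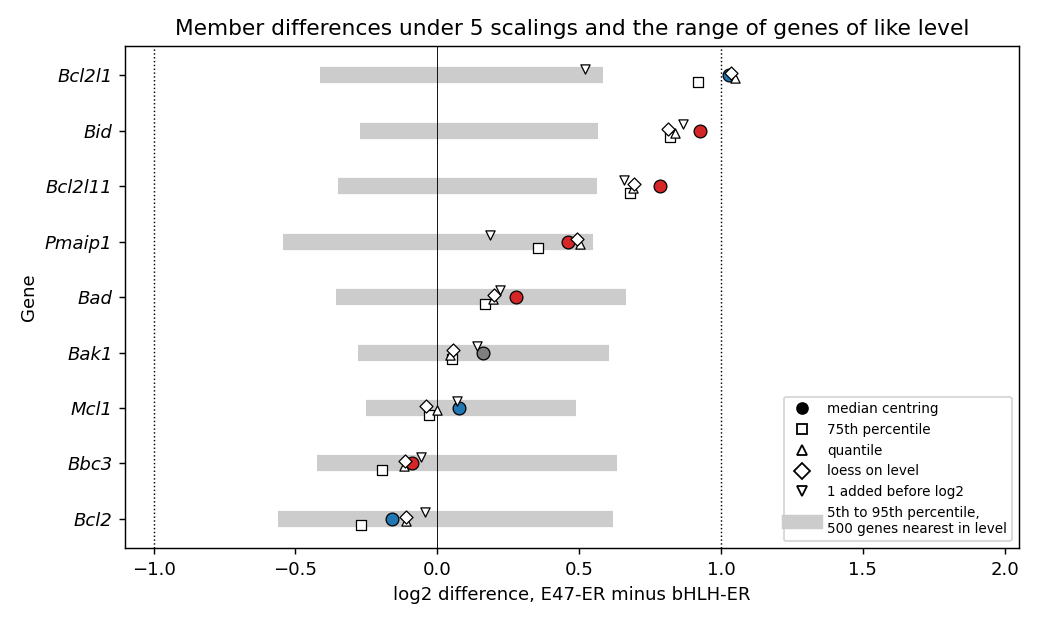
Differences of the 9 members (E47-ER minus bHLH-ER, log2) under 5 treatments of the intensities: filled circles for median centring, open symbols for the 4 others. Grey bars span the middle 90% of the 500 genes nearest in level under median centring. Bid, Bcl2l11 and Bcl2l1 lie to the right of their bars except for Bcl2l1 with 1 added before log2, at 0.52.

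Among measured genes, those nearest to a member in both centred intensities were found by their distance on the log2 scale, over these 2 arrays alone. Genes under the level limit were not searched. The mean level of Bcl2l1 is just under that limit, so genes of lower mean level were left out. Its distances therefore cannot be set beside those of Bid. Bcl2l1 had the largest difference of the members, with a control value under the level limit, and with 1 added before log2 it fell below Bid (0.52 against 0.87). Its nearest measured genes were Itgam (the measured gene of the myeloid marker list), Cspp1 and Bscl2, at distances of 0.27 to 0.29. Their differences were 0.75, 0.63 and 0.76, below that of Bcl2l1. Their control values (0.866, 0.842 and 0.878) lay under the level limit, so they counted as measured through their E47-ER values. For Bid the nearest measured genes were Padi4, Cotl1 and Carhsp1, at 0.05 to 0.10, with differences of 0.99, 0.99 and 1.05. Setting Bid beside its neighbours was added after its value was seen.

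The other BCL2 family genes were mostly dim. Of 14 listed, 8 had a named probe and only Bcl2l13, a mitochondrial relative, was measured, at 5.40 and 6.38 (0.26). The dim BH3-only genes Bmf and Bik read 0.267 and 0.360, and 0.329 and 0.164. Bcl2a1b, a survival gene with near-identical copies that a probe may share, read 0.224 and 0.154. Among proteins that bind BCL2 family members, 9 of 14 genes were measured, with a median of -0.02. Of the 9, 4 had positive differences, against 66.7% of all measured genes. Becn1, an autophagy gene whose protein binds BCL2, had the largest difference at 0.40 and Bnip2 the lowest at -0.14. None passed 2-fold.

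Genes acting after the mitochondrial step differed little. None of 11 measured genes of the cytochrome c and caspase list passed 2-fold, where 1.62% of all measured genes did. Of the 11, 8 were positive, against 66.7% of all measured genes. The median was 0.08, which turned to -0.03 under 75th percentile scaling, -0.0083 under quantile normalization and -0.0021 under loess on level. Vdac1, a channel of the outer membrane, stood highest at 0.24 and Casp6, an executioner caspase, lowest at -0.35. Cycs, cytochrome c itself, read 142 and 146. Apaf1, the scaffold that cytochrome c binds, was under the limit at 0.814 and 0.686. Of the IAP (inhibitor of apoptosis) list, 5 of 8 genes were measured and 3 were positive, near the share in all measured genes, with a median of 0.07. That median turned to -0.04 under 75th percentile scaling and quantile normalization, to -0.03 under loess and to -0.0035 with a 25th percentile level filter or none. Birc6 stood at 0.45 and Birc3 at -0.28. Xiap was under the limit at 0.432 and 0.287 and is not in these counts.

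Upstream of Bid, the death receptor list had 5 measured genes of 10, with a median of 0.21. Of the 5, 3 were positive, near the 66.7% of all measured genes. Tnfrsf1a, a TNF receptor, read 2.88 and 3.90 (0.45), and Fadd, the adaptor that recruits caspase 8, read 6.58 and 5.91 (-0.14). No probe is named Casp8 in the annotation used here. Of the p53 list, 12 of 15 genes were measured, 10 were positive, against 66.7% of all measured genes, and the median was 0.27. The growth arrest gene Gadd45a (15.2 and 36.2) and the CDK inhibitor gene Cdkn1a (1.23 and 2.48) were the 2 past 2-fold, where 1.35% of measured genes were higher. Btg2 and Perp came closest to 2-fold without passing it, and both were named after their values were seen. Btg2, an antiproliferative gene, read 31.4 and 59.5 (0.94). Perp encodes a membrane protein with a role in p53-dependent death and was 1.93-fold dimmer with E47-ER (-0.95), at 10.2 there. The family's own p53 targets Bbc3 and Pmaip1 stood at -0.09 and 0.46, and no probe is named Trp53.

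Regulators of the family by transcription, phosphorylation or turnover had a median of -0.06 over 15 measured genes of 19. Of the 15, 6 were positive, against 66.7% of all measured genes. A level limit at the 75th percentile leaves 6 of the 15, and their median turned to 0.0075. Foxo1, a forkhead factor, read 5.83 and 2.003 and was the only one past 2-fold, at -1.53, where 0.27% of measured genes were lower. FOXO factors are known activators of Bcl2l11, which stood at 0.79, and Foxo3 was dim at 0.432 and 0.430. Fbxw7, part of a ubiquitin ligase that acts on MCL1, had the highest difference of the list at 0.65. Il7r, the interleukin 7 receptor whose signal maintains BCL2 in thymocytes, read 11.5 and 14.4 (0.34).

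**Figure D4:**
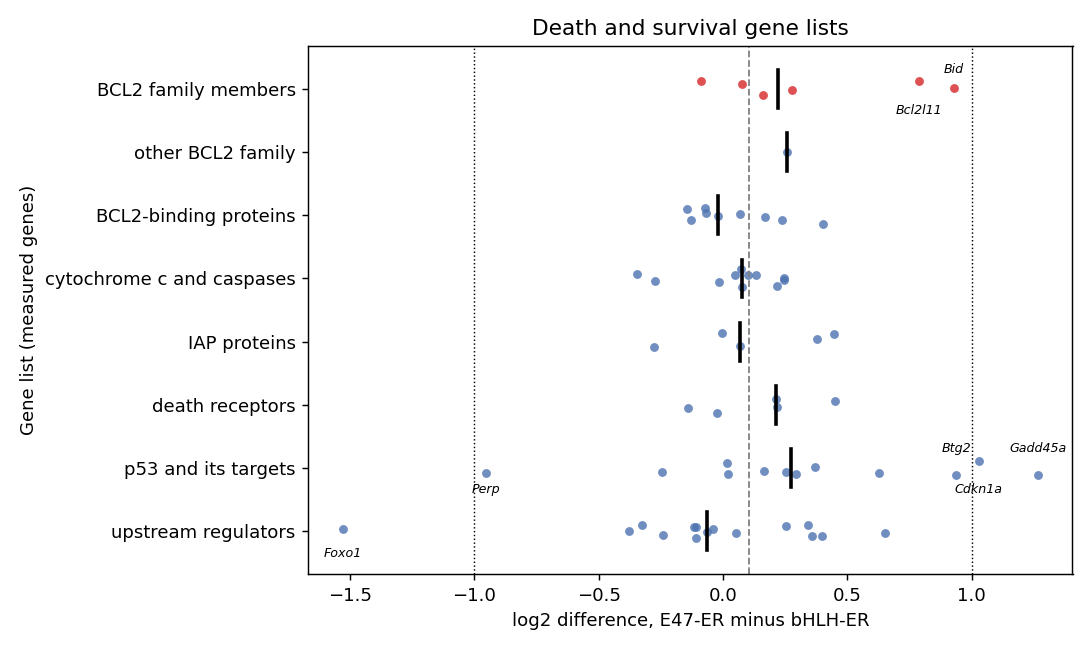
Differences (E47-ER minus bHLH-ER, log2) of the measured genes of each list, 1 point per gene with vertical jitter. Black bars are list medians, the dashed line is the median of all measured genes (0.11) and dotted lines mark 2-fold. Gadd45a and Cdkn1a lie past the right line and Foxo1 past the left one.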

How the data were processed

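The deposited table holds 1 linear intensity per probe for each of 2 arrays, 20289 probes in all. Judged from the values alone, these intensities appear to have been background-subtracted and scaled before deposit. On the bHLH-ER and E47-ER arrays, 346 and 180 probes are at or below 0, and the medians are 0.950 and 0.939. Which scanner, background method and scaling were used is not stated in these sources. Groups came from the sample titles, since the descriptions name the E47 fusion for both. Per the labels, cy3-labelled polyA RNA was used. Probes without a positive value on both arrays (668) were left out, each array's median over the other 19621 was subtracted from its log2 intensities, and probes of one gene were averaged. The table marks neither control spots nor detection, so none was removed. A single symbol, updated through the Entrez ID in RefSeq's GRCm38.p6 annotation, was found for 10349 probes, none had several here, and 9940 are unnamed here.

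The members and gene lists were chosen with earlier results of these data known. Genes named are all members, and from each list those past 2-fold or else those with the highest and lowest difference; other list genes were added as background to the members after their values were seen. With 1 array per construct no test was run, and the number of arrays limits the precision. Alternatives were 75th percentile scaling, quantile normalization, loess on level, 1 added before log2, the brightest probe, 3 other level filters and a 1.5-fold rule. A planned description of the proteins was not made. The procedure was also run on simulated data, with the same noise at all levels and changed genes drawn from measured ones. That run does not bear on Bcl2, Bcl2l1 and Pmaip1, which were not measured, and its outcome is not given here. Python 3.11.15, numpy 2.4.6, pandas 2.3.3 and statsmodels 0.14.6 were used.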

Additional observations from a re-analysis of the deposited data

How the results depend on the processing

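Of 270 recomputed values, 242 stayed within the probe SD of 0.20 or, for counts, within 1.5 times. Many of the 242 had little or no room to move, so the number is no measure of stability. All 35 brightest-probe values stayed, where genes with 1 probe cannot change. The 75th percentile scaling shifts all differences by the same amount, less than the probe SD. Many list counts were 0 under both settings. Bid, Bcl2l11, Bcl2l1, Bad, Bak1 and Pmaip1 had positive differences, and Bcl2 and Bbc3 negative ones, in each of 5 alternatives. The brightest probe is 1 of these 5 and could not change a member, since each has 1 probe. Over the 4 others Mcl1 ranged from -0.04 to 0.07. With 1 added before log2, Bcl2l1 fell to 0.52 and Pmaip1 to 0.19, and 38 genes were called higher and 5 lower. At 75th percentile scaling 24 genes were called lower. A 25th percentile level filter gave 129 called higher and 53 lower, a 75th percentile one 25 and 4, and none 496 and 420. At 1.5-fold the counts were 301 and 69. The members called higher numbered 1 (Bcl2l1) with the 25th percentile filter or none, and 2 at 1.5-fold (Bid and Bcl2l11). In the p53 list 1 gene was called higher under 75th percentile scaling, quantile normalization, 1 added before log2 and the 75th percentile filter. In that list 1 gene was called lower under 75th percentile scaling, quantile normalization and loess, and at 1.5-fold 4 were called higher and 1 lower. Its median was 0.020 over the 7 genes left by the 75th percentile filter. Among the regulators, 0 genes were called lower with the 75th percentile filter, which leaves 6 of them, and 1 was called higher at 1.5-fold. Beyond the smaller or larger gene sets that the filters make, the cause was not tested. No paired analysis was possible because each construct has 1 array, and no array could be left out. Signal limits the values of Bcl2, Pmaip1 and Bcl2l1, which lie near or under the level limit.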
